A study of Mus musculus with 12 samples.

Results

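Mature olfactory sensory neurons turn odor into current through one short cAMP cascade, and the 10 genes described here are its core together with the standard marker of these neurons. They are Gnal, Gnb1 and Gng13 (subunits of the G protein Golf), Adcy3 (adenylyl cyclase III), Cnga2, Cnga4 and Cngb1 (the subunits of the cyclic nucleotide-gated channel), Ano2 (the calcium-activated chloride channel of the cilia), Slc24a4 (the sodium/calcium exchanger that ends the response) and Omp (olfactory marker protein). A member was taken as a listed gene with a probe set that carries its symbol alone, and where a gene had several such probe sets the one with the highest mean over all arrays was used. All 10 listed genes were found, among 19938 genes with 1 symbol on the array, and all 10 lay above the filter on low values described with the processing.

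The samples were 12 pools of tissue from one side of the main olfactory epithelium (MOE), each read on 1 Affymetrix Mouse Gene ST array, of WT mice and of H2be-KO mice, in which the coding sequence of the olfactory histone variant gene H2be is replaced by a Gap43-mCherry reporter. Every mouse had undergone unilateral naris occlusion (UNO): the right nostril was closed by electrocautery at 14 days of age, and the tissue was taken at 5 weeks, after 3 weeks of closure, although the age given in another label is 6 months. The 4 groups were thus WT open side, WT closed side, H2be-KO open side and H2be-KO closed side, with 3 samples each and 2 mice (1 female and 1 male) in each sample by the design text, a number that a legend of the study gives as larger. The open side is an internal control that breathes through the remaining nostril, and no group came from unoperated mice.

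As background, an odorant bound to its receptor (OR) frees the alpha subunit of Golf from its beta and gamma partners, the alpha subunit turns on adenylyl cyclase III, and the cAMP made opens the channel, in which Cnga2 is the principal subunit while Cnga4 and Cngb1 tune its sensitivity to cAMP and its closing by calcium-calmodulin. Calcium that enters then opens Ano2, through which chloride leaves the cell and the depolarization grows, and Slc24a4 clears the calcium again. Omp, a small cytoplasmic protein of mature neurons, shapes the speed of this response and serves as their usual marker. The comparison of sides asks how the transcripts of this cascade differed between the closed and the open side after 3 weeks of occlusion. The comparison of genotypes asks whether the loss of H2be altered their levels or that difference.

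The H2be probe set (current symbol H2bc21) had mean log2 levels of 11.58 in WT open, 11.71 in WT closed, 11.32 in H2be-KO open and 11.44 in H2be-KO closed samples. It was lower by 0.26 in H2be-KO on the open side (adjusted p = 0.641, limma) and by 0.27 on the closed side (adjusted p = 0.999). Neither difference passed the test as adjusted over all probe sets. Both had the same direction, and not passing does not show that the level was unchanged. Since the sources used here do not say which part of the gene the probes cover, and only the coding sequence was replaced, this probe set does not check the genotype labels. The arrays correlated at r = 0.972 to 0.985 within groups and at 0.968 to 0.984 between groups, over the probe sets above the filter on low values. The defining markers of mature olfactory neurons were present in every array, with Omp at a log2 level of at least 12.53 and Cnga2 of at least 11.58, where the filter on low values lay at 5.

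Occlusion was accompanied by a higher level of most of the cascade, and the channel subunits Cnga4 and Cngb1 and the chloride channel Ano2 had the largest estimates. Averaged over both genotypes, 6 of the 10 members were higher on the closed side at an adjusted p under 0.05 (limma), by 1.20-fold to 1.32-fold, and 0 were lower. These were Gnal, Adcy3, Cnga2, Cnga4, Cngb1 and Ano2. With same-numbered open and closed samples taken as pairs, the calls of Gnal and Cnga2 were lost. Across all 32615 probe sets tested, 1.66% were called higher in this comparison. The median difference of the 10 members was 0.27 on the log2 scale, against 0.003 for all probe sets. Omp, the marker of the neurons that carry the cascade, was at 1.02-fold and did not pass. The tissue is a mixture of cell types measured in bulk, so fewer cells of a type and less RNA per cell cannot be told apart here, nor can more cells and more RNA per cell.

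**Figure D1:**
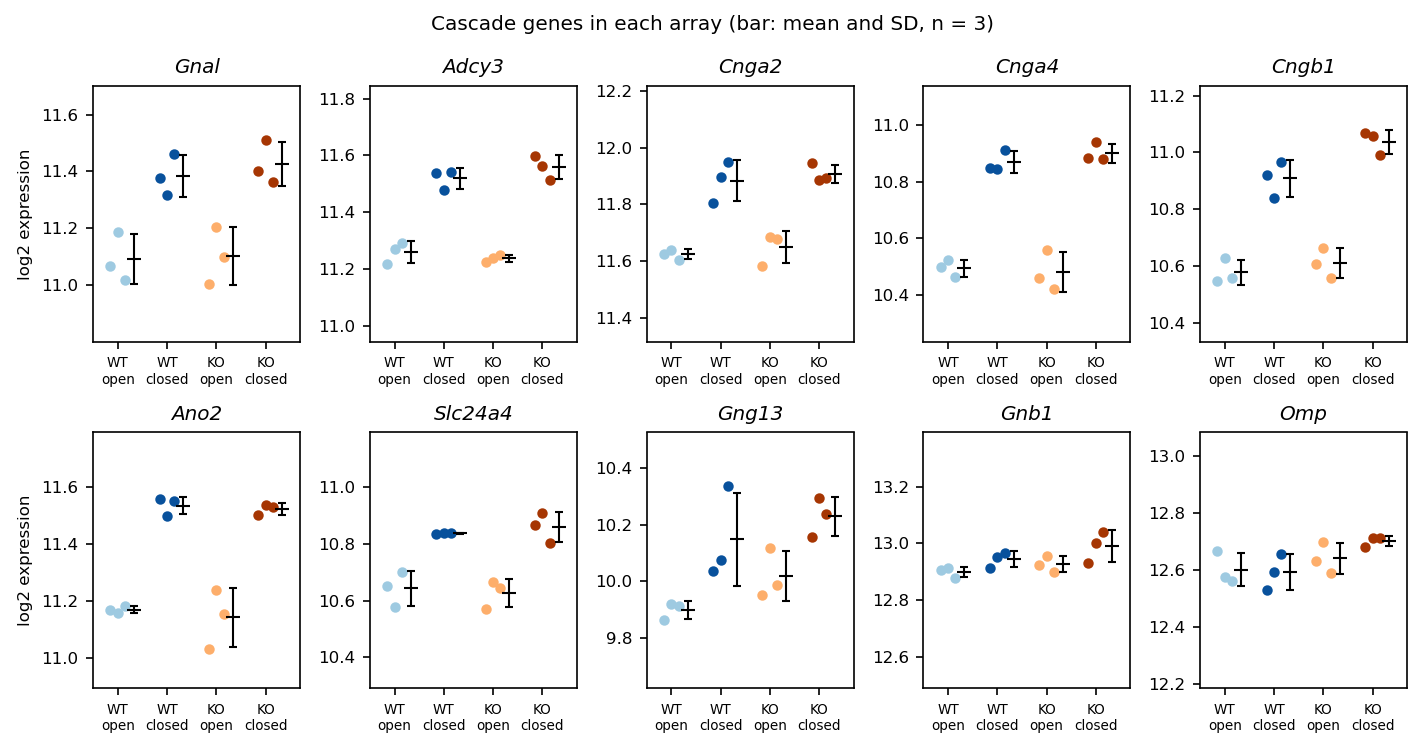
Deposited log2 expression of each of the 10 members in each of the 12 arrays, in 1 panel per gene that spans 0.9 log2 units, with points for the 3 samples of a group and a bar for their mean and SD. The closed-side points lie above the open-side points of both genotypes for 7 members, while those of Gng13, Gnb1 and Omp overlap.

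For the G protein, the alpha subunit Gnal passed the test and its beta and gamma partners did not. Gnal had log2 levels of 11.07, 11.19 and 11.02 in the 3 WT open samples and 11.38, 11.32 and 11.46 in the WT closed samples. In H2be-KO it was at 11.00, 11.20 and 11.10 in open samples and at 11.40, 11.51 and 11.36 in closed samples. All 6 closed samples lay above all 6 open samples. The difference was 0.29 in WT (SE 0.090, adjusted p = 0.244) and 0.32 in H2be-KO (SE 0.090, adjusted p = 0.171), and it passed only when both genotypes were averaged, at 0.31 (SE 0.064, adjusted p = 0.0241), or 1.24-fold with a 95% interval of 1.12 to 1.36. This call was lost, with an adjusted p of up to 0.0773, when any of 8 of the 12 arrays was left out: WT open 1 and 3, WT closed 1 and 3, H2be-KO open 1 and 3, and H2be-KO closed 1 and 2.

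Gng13, the gamma subunit of the same G protein, was at 9.86, 9.92 and 9.91 in WT open samples and at 10.03, 10.08 and 10.34 in WT closed samples. Its H2be-KO values were 9.95, 10.12 and 9.99 in open samples and 10.16, 10.29 and 10.24 in closed samples. The sides did not overlap within either genotype, but the second H2be-KO open sample lay above 2 WT closed samples, and the WT closed sample at 10.34 stood above all others. The mean difference was 0.23 (SE 0.069, adjusted p = 0.126), or 1.17-fold with an interval of 1.06 to 1.30, and did not pass. Gnb1, the beta subunit, which many other receptors and cell types also use, stayed within a narrow band: 12.91, 12.91 and 12.88 in WT open, 12.91, 12.95 and 12.97 in WT closed, 12.92, 12.96 and 12.90 in H2be-KO open and 12.93, 13.00 and 13.04 in H2be-KO closed samples. Its mean difference of 0.05 (SE 0.052, adjusted p = 0.754) had an interval of -0.06 to 0.17, which lies below the estimates for all 6 members that were called.

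Adcy3, whose product makes the cAMP of the odor response, showed little spread between samples. Its levels were 11.22, 11.27 and 11.29 in WT open and 11.54, 11.48 and 11.54 in WT closed samples. In H2be-KO they were 11.23, 11.24 and 11.25 in open samples and 11.60, 11.56 and 11.52 in closed samples. The lowest closed sample lay above the highest open sample. The difference was 0.26 in WT (adjusted p = 0.185) and 0.32 in H2be-KO (adjusted p = 0.0752), with a mean over both of 0.29 (SE 0.052, adjusted p = 0.00997), or 1.22-fold with an interval of 1.13 to 1.32. The call for both genotypes held whichever array was left out. It also held under the other alternatives run, but only narrowly in 1 of them, with an adjusted p of up to 0.0499 (limma).

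The 3 subunits of the cAMP-gated channel all passed the test over both genotypes. Cnga2, the principal subunit, was at 11.63, 11.64 and 11.61 in WT open, 11.81, 11.90 and 11.95 in WT closed, 11.58, 11.68 and 11.68 in H2be-KO open and 11.94, 11.89 and 11.89 in H2be-KO closed samples. Every closed sample exceeded every open one. Its difference was 0.26 in each genotype and 0.26 on average (SE 0.054, adjusted p = 0.0256), or 1.20-fold with an interval of 1.10 to 1.30. Its call was lost without any of 9 arrays (adjusted p up to 0.0862), the exceptions being H2be-KO open 3, WT open 2 and WT closed 1.

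Cnga4, a modulatory subunit, was at 10.50, 10.52 and 10.46 in WT open and at 10.85, 10.84 and 10.91 in WT closed samples. In H2be-KO it was at 10.46, 10.56 and 10.42 in open samples and at 10.88, 10.94 and 10.88 in closed samples. The gap between the highest open and the lowest closed sample was larger than the spread within any group. It was the only member called in WT alone, at 0.37 (SE 0.076, adjusted p = 0.0487), and was also called in H2be-KO alone, at 0.42 (SE 0.076, adjusted p = 0.0250). The average of 0.40 (SE 0.054, adjusted p = 0.00174), or 1.32-fold with an interval of 1.21 to 1.43, was the largest difference among the members and was called without each array in turn. The call in WT was lost whichever of the 12 arrays was left out (adjusted p 0.0689 to 0.196), and that in H2be-KO without any of the 6 H2be-KO arrays (adjusted p up to 0.129).

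Cngb1, the other modulatory subunit, was at 10.55, 10.63 and 10.56 in WT open and at 10.92, 10.84 and 10.97 in WT closed samples. In H2be-KO it was at 10.61, 10.67 and 10.56 in open samples and at 11.07, 11.06 and 10.99 in closed samples. The closed samples were again all above the open ones, and the H2be-KO closed samples were above the WT closed ones. The difference was 0.33 in WT (SE 0.078, adjusted p = 0.0954), 0.43 in H2be-KO (SE 0.078, adjusted p = 0.0254) and 0.38 over both (SE 0.055, adjusted p = 0.00271), the last equal to 1.30-fold with an interval of 1.20 to 1.41. The H2be-KO call was lost without any of the 6 H2be-KO arrays (adjusted p up to 0.119). Cngb1 was the only member with several probe sets of its own: the other 3 had mean log2 levels of 6.72 to 7.45, and their differences over both genotypes were -0.05, 0.05 and 0.05, with adjusted p of 0.889, 0.933 and 0.917. Taken as the mean of its 4 probe sets, Cngb1 was at 0.11 (adjusted p = 0.634) and no longer passed.

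Of the 2 members that act after calcium enters, Ano2 rose and Slc24a4 did not pass. Ano2 was at 11.17, 11.16 and 11.18 in WT open and at 11.56, 11.50 and 11.55 in WT closed samples. In H2be-KO it was at 11.03, 11.24 and 11.15 in open samples and at 11.50, 11.54 and 11.53 in closed samples. The open and closed samples did not overlap, and the H2be-KO open samples were the most spread. The difference was 0.37 in WT (SE 0.079, adjusted p = 0.0642), 0.38 in H2be-KO (SE 0.079, adjusted p = 0.0463) and 0.37 over both (SE 0.056, adjusted p = 0.00316), or 1.30-fold with an interval of 1.19 to 1.41. The H2be-KO call was lost whichever of the 12 arrays was left out (adjusted p 0.0630 to 0.229), and the call over both genotypes was kept in each case.

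Slc24a4 was at 10.65, 10.58 and 10.70 in WT open, 10.84, 10.84 and 10.84 in WT closed, 10.57, 10.66 and 10.65 in H2be-KO open and 10.87, 10.91 and 10.80 in H2be-KO closed samples. The 6 closed samples were above the 6 open ones. Its difference of 0.21 over both genotypes (SE 0.054, adjusted p = 0.0661), or 1.16-fold with an interval of 1.07 to 1.26, missed the threshold and kept its sign in each genotype, at 0.19 and 0.23.

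Omp was at 12.67, 12.57 and 12.56 in WT open and at 12.53, 12.59 and 12.65 in WT closed samples. In H2be-KO it was at 12.63, 12.70 and 12.59 in open samples and at 12.68, 12.71 and 12.71 in closed samples. The sides overlapped in both genotypes. The difference was -0.01 in WT (adjusted p = 0.992) and 0.06 in H2be-KO (adjusted p = 0.878), with a mean of 0.03 (SE 0.055, adjusted p = 0.910) and an interval of -0.09 to 0.15. Omp and Gnb1 both had a mean log2 level above 12. Of the 57 other named genes above 12, 1 was called (Stoml3, higher by 0.23) and the differences spanned -0.10 to 0.23. Among 310 genes with a mean between 11 and 12, 11 were called higher and 10 lower, with a span of -1.37 to 0.47. Among 1023 genes between 10 and 11, 63 were called higher and 40 lower, with a span of -1.41 to 0.81. A span widens with the number of genes, so these spans are not directly comparable. The part of this brightness in the small differences of Omp and Gnb1 was not tested.

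Taken one genotype at a time, 1 of 10 members was called higher in WT (Cnga4), where 0.475% of all probe sets were called higher, and 3 of 10 in H2be-KO (Cnga4, Cngb1 and Ano2), where 0.705% were. No member was called lower in either. At an unadjusted p under 0.05, 8 members passed in WT, 7 in H2be-KO and 8 in the mean of both, against 9.34%, 10.5% and 13.2% of all probe sets. The 3 closed samples lay wholly above the 3 open ones for 9 members in WT, against 6.19% of all probe sets, and for 8 members in H2be-KO, against 10.6%. Gnb1 counted among the 9 in WT only narrowly, with its lowest closed sample at 12.9123 and its highest open sample at 12.9119. With both genotypes together, the 6 closed samples lay above the 6 open ones for 7 members, against 2.12% of all probe sets. The counts in single genotypes moved with the settings of the fit: with a trend in the variance and robust estimation, 6 members were called in each genotype, and with the 6 arrays of a genotype fitted alone, 0 were called in either.

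**Figure D2:**
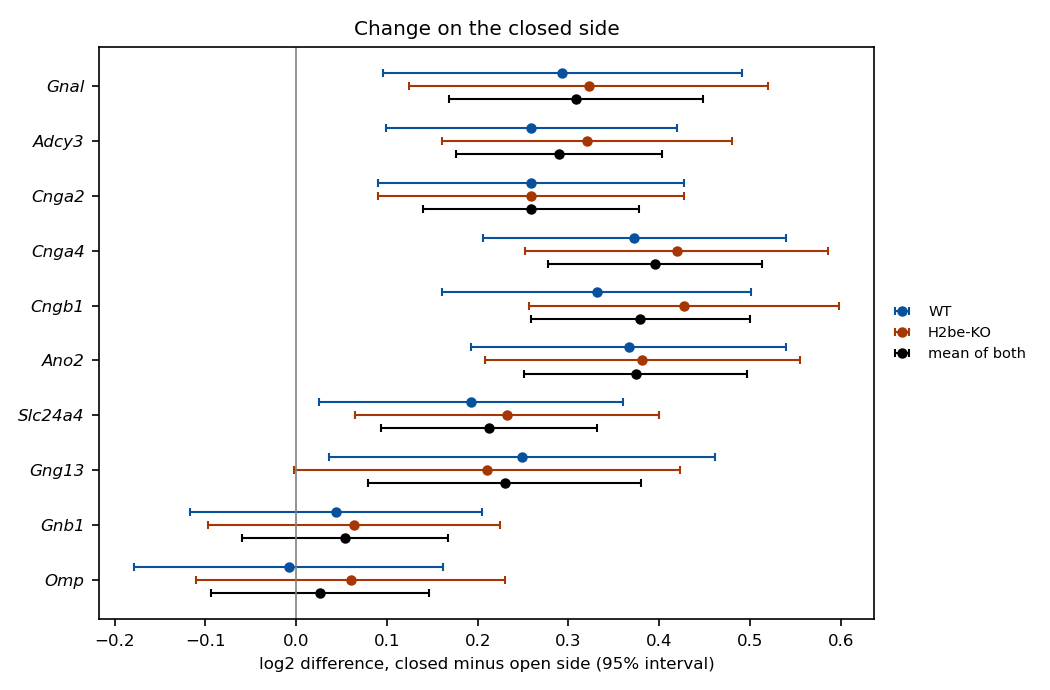
Log2 difference between the closed and the open side for each member in WT, in H2be-KO and in the mean of both, with 95% intervals from the limma fit on a linear axis. The intervals of the mean lie above 0 for 8 members, and those of Gnb1 and Omp include 0.

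Members were also expressed relative to Omp, which was subtracted from every probe set array by array. A value then reads as the change beyond that of this single transcript, and not as a change per mature neuron. Of 14 other markers of mature neurons, 5 were called higher and 3 lower on the closed side over both genotypes as normalized. Cnga4 was higher on the closed side by 0.37 (SE 0.059, adjusted p = 0.00525), Cngb1 by 0.35 (SE 0.064, adjusted p = 0.0119) and Ano2 by 0.35 (SE 0.064, adjusted p = 0.0132), over both genotypes. These were 3 of the 9 remaining members, and 1.03% of all probe sets were called higher on this scale. Gnal (0.28, adjusted p = 0.0604), Adcy3 (0.26, adjusted p = 0.0677) and Cnga2 (0.23, adjusted p = 0.0862) kept most of their difference but missed the threshold, and Slc24a4 (0.19), Gng13 (0.20) and Gnb1 (0.03) did not pass. The call of Ano2 was lost without the first H2be-KO open sample (adjusted p = 0.0525), and that of Cngb1 with the mean of its 4 probe sets, at 0.08 (adjusted p = 0.757). With same-numbered open and closed samples taken as pairs, all 3 calls were lost (limma, adjusted p = 0.0555 for Cnga4 and 0.0835 for Ano2).

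Cnga2 was the reference transcript of the study's quantitative PCR. That work compared H2be-KO with WT in whole MOE tissue of older mice, and not the sides. Between genotypes Cnga2 differed here by 0.02 on the open and on the closed side. Relative to Cnga2 the picture of the sides was centred differently, since Cnga2 itself was higher on the closed side. Omp was lower by 0.23 (SE 0.060, adjusted p = 0.0113) and Gnb1 by 0.20 (SE 0.061, adjusted p = 0.0192), and 0 of the other 7 members passed. On this scale 47.1% of all probe sets were called lower, and the median of all probe sets was -0.26, so the 2 calls of 9 members are a smaller share than the background. Cnga4 was at 0.14 (interval 0.01 to 0.27, adjusted p = 0.0748), Cngb1 at 0.12, Ano2 at 0.11, Gnal at 0.05, Adcy3 at 0.03, Gng13 at -0.03 and Slc24a4 at -0.05. Differences among the members that rose were thus not resolved against Cnga2.

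**Figure D3:**
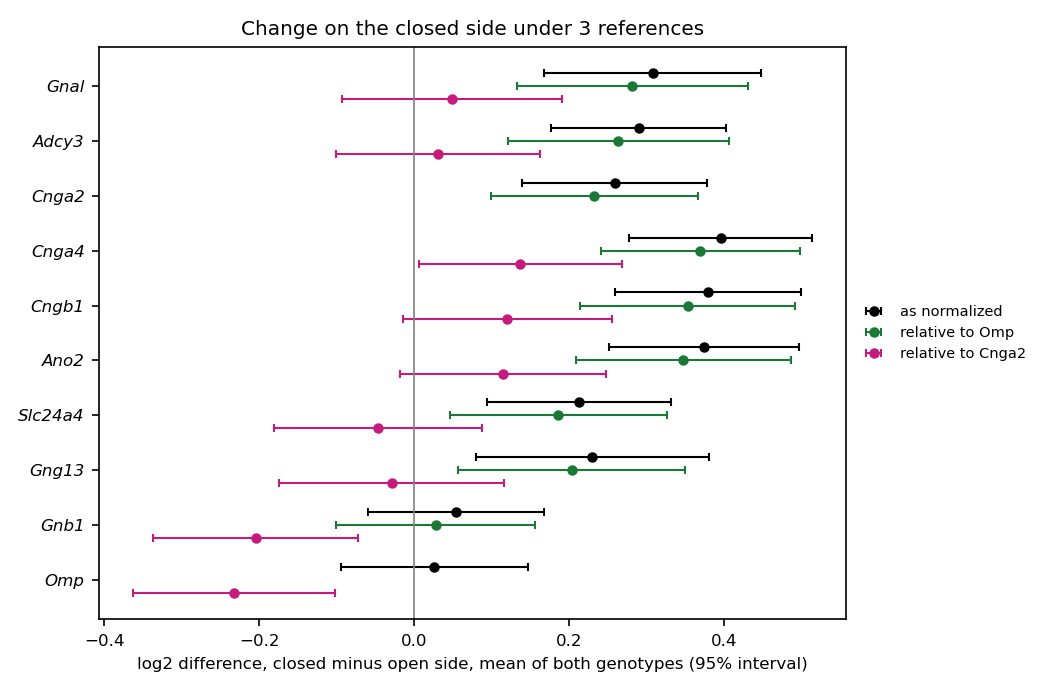
Log2 difference between the closed and the open side, averaged over both genotypes, for each member as normalized by the authors, relative to Omp and relative to Cnga2, with 95% intervals. The values relative to Omp stay close to those as normalized, while those relative to Cnga2 shift towards or below 0, to -0.23 for Omp.

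No difference between the genotypes passed the test at any member, on either side. On the open side 0 of 10 members were called between H2be-KO and WT, where 0.0215% of all probe sets were called in either direction, and 0 had an unadjusted p under 0.05. The differences ran from -0.03 (Ano2) to 0.12 (Gng13, interval -0.09 to 0.33), and the H2be-KO samples lay wholly above the WT samples for 1 member, Gng13, against 4.02% of all probe sets. On the closed side 0 of 10 were called again, against 0.0245% of all probe sets. There the differences ran from -0.01 (Ano2) to 0.13 (Cngb1, interval -0.04 to 0.30), and H2be-KO lay wholly above WT for 2 members, Cngb1 and Omp (0.11, interval -0.06 to 0.28), against 4.23% of all probe sets. The widest of these intervals reached 0.33, which is as large as some of the differences between the sides.

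The response to occlusion was compared between genotypes by the difference of the differences. None of the 10 members passed, 0% of all probe sets did, and 0 members had an unadjusted p under 0.05, against 1309 of 32615 probe sets (limma). The values ran from -0.04 (Gng13) to 0.10 (Cngb1, interval -0.14 to 0.34), and for Cnga2 the change was the same in both genotypes to within 0.001 (interval -0.24 to 0.24). That a member was called in one genotype and not in the other is therefore not shown to be a difference between them, and the intervals allow differences of up to 0.34 in size.

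**Figure D4:**
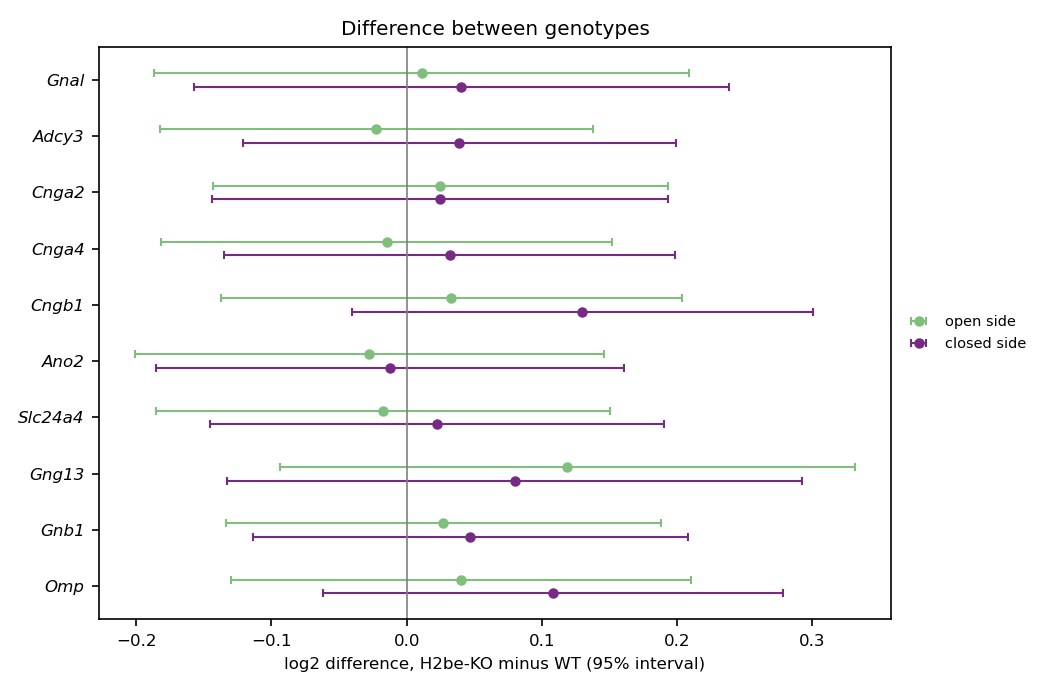
Log2 difference between H2be-KO and WT for each member on the open and on the closed side, with 95% intervals from the limma fit. All 20 intervals include 0, and the points lie between -0.03 and 0.13.

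The order of the 4 group means differed among the members, mainly in which genotype was higher on a side. The means of both closed groups were above the means of both open groups for 9 members, and for Omp the order from low to high was WT closed, WT open, H2be-KO open and H2be-KO closed. No pair of groups that share a side differed beyond the test's threshold. Averaged over the 10 members, single arrays lay at 11.20 to 11.30 on the open side and at 11.43 to 11.54 on the closed side.

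Transcripts of proteins that act on the cascade without being part of its core moved in both directions. Of 19 such partners listed, 16 had a probe set of their own. Over both genotypes 4 were called higher and 1 lower on the closed side, where 1.66% and 1.23% of all probe sets were. The median of the partners was 0.21. Pde4a, the phosphodiesterase that breaks down cAMP in the cell body and dendrite, rose by 0.57 (SE 0.059, adjusted p = 0.000274), and was called in WT (0.48, adjusted p = 0.0226) and in H2be-KO (0.66, adjusted p = 0.00269) as well. Its counterpart of the cilia, Pde1c, was at -0.12 (adjusted p = 0.400). Rtp1 (0.27, adjusted p = 0.0209) and Reep1 (0.28, adjusted p = 0.0280), which help carry ORs to the membrane, and Stoml3 (0.23, adjusted p = 0.0342), a membrane protein of the cilia, were higher. Camk4, a calcium-calmodulin kinase, fell by 0.59 (SE 0.078, adjusted p = 0.00145) and was called lower in WT and in H2be-KO, with a mean log2 level of 6.54. Arrb2, an arrestin that takes part in receptor desensitization, fell by 0.42 in WT (adjusted p = 0.0439) and was at -0.06 in H2be-KO, and the difference between these did not pass (0.36, limma).

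Among genes related to the members, none was called higher, which at a share of 1.66% over all probe sets does not set them apart. Of 55 such relatives (other G protein subunits, adenylyl cyclases, cyclic nucleotide-gated channels, anoctamins and sodium/calcium exchangers), 54 were on the array, and over both genotypes 0 were called higher and 2 lower, with a median of -0.001, where 1.66% of all probe sets were called higher and 1.23% lower. Slc24a2, an exchanger related to Slc24a4, fell by 0.54 (adjusted p = 0.000640) and was called in WT (-0.61) and in H2be-KO (-0.47). Gng8, a gamma subunit of immature olfactory neurons, fell by 0.42 (adjusted p = 0.00270) and was called in WT.

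Genes of immature neurons were lower where 6 of the members were higher. Of 17 immature neuron markers, 9 were lower on the closed side over both genotypes and 0 higher, with a median of -0.26, against 1.23% of all probe sets called lower. They included Gap43 (-0.28, adjusted p = 0.0241) and Tubb3 (-0.26, adjusted p = 0.0237). This list shares Gng8 with the relatives. Averaged over the 17 genes, the arrays lay at 10.05 to 10.11 on the open side and at 9.82 to 9.94 on the closed side. Of 14 markers of mature neurons other than the members, 5 were higher (Rtp1, Stoml3, Reep1, Umodl1 and Carns1) and 3 lower (Slc17a6 at -0.36, Olfm1 at -0.41 and Kcnmb3 at -1.31), with a median of 0.14, and 5 of these 14 are also among the partners. Neurod1, of neuronal progenitors, fell by 0.27 (adjusted p = 0.0429), the only one called of 9 markers of basal and progenitor cells. Markers of sustentacular cells (0 of 11 called), respiratory cilia (0 of 10, median 0.19, all 10 above 0), Bowman glands (0 of 7), ensheathing glia (0 of 6) and blood and immune cells (0 of 7) did not pass. The part that the make-up of the tissue has in the rise of the members was not tested.

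**Figure D5:**
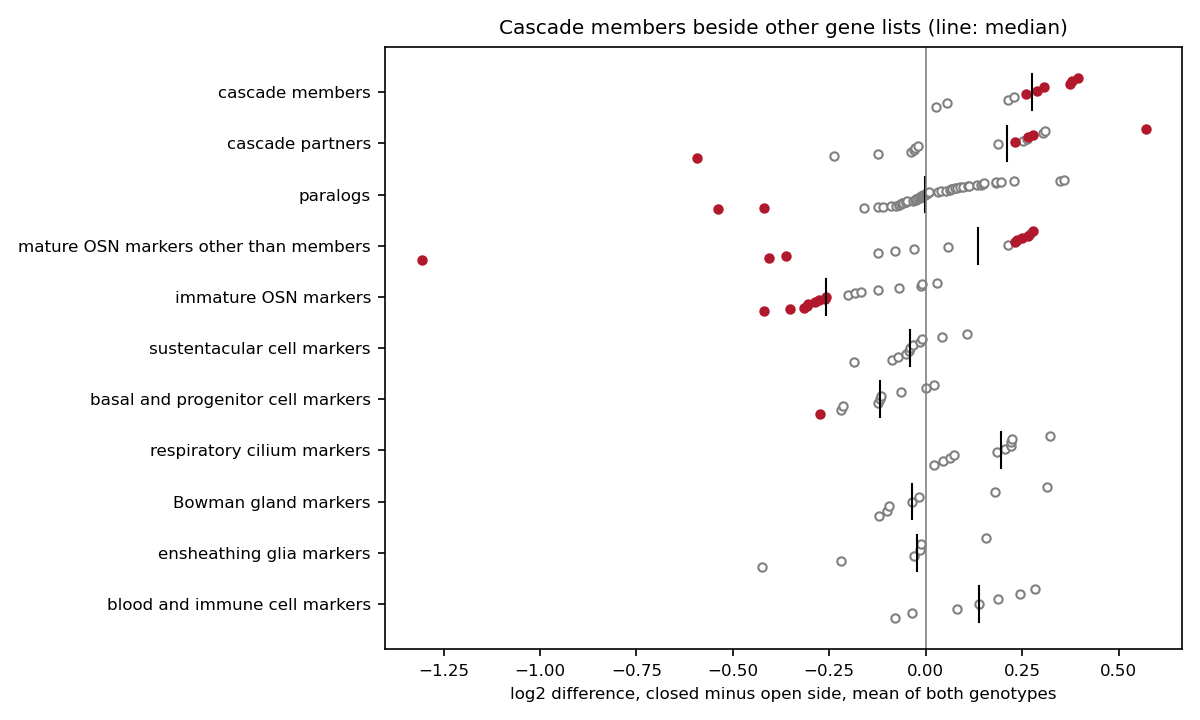
Log2 difference between the closed and the open side, averaged over both genotypes, for each gene of the members, the partners, the relatives (paralogs) and 8 lists of cell type markers, with filled red points for genes called at an adjusted p under 0.05, open points for the rest and a line at the median of each list. The medians are 0.27 for the members, 0.21 for the partners, -0.001 for the relatives and -0.26 for immature neurons.

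For each member called in a comparison of sides, the 3 genes of 19380 whose levels followed it most closely over the 12 arrays were found by the root mean square difference after each gene was centred on its own mean. Gnal was closest to Impdh1, Marchf2 and Ptpn3 (0.046 to 0.051 log2 units), Adcy3 to Prrc2a, Ccdc157 and Abca5 (0.032 to 0.033), and Cnga2 to Sgpl1, Gcnt2 and Ip6k2 (0.025 to 0.034). Cnga4 was closest to Lrrn1, Gm11992 and Iqce (0.038 to 0.041), Cngb1 to Ptpn3, Iqce and Gprc5c (0.038 to 0.046), and Ano2 to Acp2, Gpt2 and the OR gene Olfr12 (0.043 to 0.049). The members' own spread about their means over the same arrays was 0.14 to 0.20, most of which is the difference between the sides. Iqce and Ptpn3 each stood near 2 members. These are descriptions of likeness over arrays that share the 2 sides.

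Because several members moved together, the promoters of the RefSeq annotation (GRCm38.p6, 250 bases before to 50 after each start) were searched on both strands for 3 short motifs. Of the members, 8 (Adcy3, Cnga2, Cnga4, Cngb1, Ano2, Slc24a4, Gng13 and Gnb1) had 12 promoters in this set. The core of the site bound by Ebf factors (first named Olf-1 in olfactory genes), CCCNNGGGA, stood in 3 of the 12, 1 each of Cnga2, Ano2 and Gng13, and in 6.56% of 32851 promoters of the set. The cAMP response element TGACGTCA (1.79% of promoters) and the homeodomain core TAATTA (5.29%) were in 0 of the 12, so no match overlapped another. The 3 matches are shown with 8 bases on each side, read 5′ to 3′ along the gene's strand, with the match in capitals. That of Cnga2, in the window chrX:71991774-71991798, is the motif on the opposite strand and begins at position -67 from the start. That of Ano2, in chr6:125711113-125711137, begins at -67 from the last of 3 annotated starts, and that of Gng13, in chr17:25717070-25717094, at -94 from the first of 2. All 3 genes lie on the plus strand.
Cnga2: agggagagTCCCTTGGGgagcttgg
Ano2: gggaacacCCCGAGGGAtggaggca
Gng13: tgtcccacCCCAGGGGAgacctgcc
Of these 3 genes, Cnga2 and Ano2 were called higher on the closed side and Gng13 was not, while Adcy3, Cnga4 and Cngb1 were called without a match in their windows.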

How the data were processed

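RNA of MOE tissue from one side was labelled and read on Affymetrix Mouse Gene ST arrays. The deposited values are on the log2 scale, 1 for each of 35556 probe sets in each of the 12 arrays, with 0 missing. The authors had made them in Affymetrix Expression Console, with IterPLIER as the summary and sketch-quantile as the normalization. Quantile scaling makes values relative to the whole array, and the number of arrays, 3 in a group, limits the precision. Probe sets were named from the platform annotation: 21789 carried 1 symbol, 1621 several and 12146 none, and those with several named no gene.

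A filter at a mean log2 level of 5, as in the study's methods, took out 2941 probe sets. A limma model with 1 mean per group was fitted to the other 32615 (limma 3.58.1, R 4.3.3, lmFit and eBayes), with contrasts for side, genotype and their interaction. Tests were two-sided, p-values were adjusted by Benjamini-Hochberg over all probe sets fitted, and a gene was called at an adjusted p under 0.05. Intervals are 95% intervals of the fit, and folds are 2 to the power of the log2 difference. Levels of different probe sets are not comparable between genes. Relative values subtract the reference gene's log2 value in each array before the fit. The labels do not say that the samples of a group came from separate litters or operations, so p-values measure the spread between these pools of mice. Every mouse had an open and a closed side, so samples of the 2 sides may share mice. The labels do not say that same-numbered ones do, and deviations from the group means do not settle it. In replicate 2 same-numbered samples correlated at 0.17 (WT) and 0.23 (H2be-KO), against at most -0.06 and -0.03 with other numbers. In H2be-KO replicate 1 the same number also stood highest, and in WT replicates 1 and 3 and H2be-KO replicate 3 another number did. No pairing was used, and the closing section gives the effect of a block.

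The members and gene lists were chosen with earlier results of these data known. All members are described. Partners and relatives are named where called in a comparison of sides, and other genes where a list's count needed them (chosen after their values were seen). Older symbols were matched through RefSeq synonyms, and listed genes left without a probe set of their own were not analysed here. The script was tested on simulated data, and matplotlib 3.10.9 (Python 3.11.15) drew the figures. Alternatives tried were other filters (none, or a mean above 7), variance trend with robust estimation, array weights, further quantile normalization, median centring, the 6 arrays of a comparison alone, a replicate block, adjustment over 1 probe set per gene, the mean of a gene's probe sets, and leaving out each array.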

Additional observations from a re-analysis of the deposited data

How the results depend on the processing

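The 6 members called over both genotypes numbered 4 to 8 under the alternatives run and 4 to 6 without each array in turn. Counts that moved by over 1.5 times were these. In WT, the 1 member called became 3 with the filter at 7, 6 with trend and robust estimation, 2 with adjustment over 1 probe set per gene, and 0 with array weights, median centring, the 6 arrays alone, the replicate block or any array left out (0 to 0). In H2be-KO, the 3 called became 6 with trend and robust estimation, 0 with the 6 arrays alone or the replicate block, and 0 to 2 without an array. Relative to Omp, the 3 called became 6 with the filter at 7, with trend and robust estimation and with array weights, 0 with the replicate block, and 2 to 3 without an array. The 5 partners called became 8 with trend and robust estimation, 2 with the replicate block and 2 to 4 without an array. The cause was not tested. Counts relative to Cnga2 (2 to 3), of relatives (2 to 3), and of differences between genotypes and between their changes (0 throughout) held. The block took same-numbered open and closed samples as pairs. Deviations of such samples correlated at -0.01, 0.17 and 0.02 in WT and at 0.05, 0.23 and 0.03 in H2be-KO. These values do not decide whether same-numbered samples share mice. With the block, 4 members were called over both genotypes, without Gnal and Cnga2. Further quantile normalization ended the call of Cnga2.

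Of 1678 values of single members across comparisons and alternatives, 1526 kept direction and side of the threshold, 75 lost and 30 gained a call, and 47 changed sign. Those 47 were of differences that were not called, most of them near 0. With array weights they were Gnal on the open side between genotypes (-0.0057) and the change of Cnga2 between genotypes (0.011). With quantile normalization they were Omp in WT (0.015), Adcy3 (0.00769) and Ano2 (0.013) on the open and Ano2 (0.013) on the closed side between genotypes, and the change of Gnb1 (-0.0188). With median centring they were Omp in WT (0.012), Adcy3 (0.026), Cnga4 (0.033), Ano2 (0.020) and Slc24a4 (0.030) on the open side between genotypes, and the changes of Gnal (-0.015), Ano2 (-0.029), Slc24a4 (-0.0048) and Gnb1 (-0.024). With the mean of its probe sets, Cngb1 was at -0.0070 between genotypes on the closed side, at -0.038 in the change between genotypes and at -0.15 relative to Cnga2. Without an array in turn, Omp in WT spanned -0.039 to 0.025. Between genotypes on the open side Gnal spanned -0.040 to 0.061, Cnga4 -0.054 to 0.014, Ano2 -0.076 to 0.028 and Slc24a4 -0.050 to 0.011, and on the closed side Gnal spanned -0.0027 to 0.078, Cnga2 -0.014 to 0.057 and Slc24a4 -0.0026 to 0.051. The change between genotypes spanned -0.021 to 0.080 for Gnal, -0.039 to 0.032 for Cnga2, -0.040 to 0.064 for Ano2, -0.096 to 0.055 for Gng13 and -0.0049 to 0.050 for Gnb1.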
